A study of Mus musculus with 4 samples.

Results

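Ccl2, Ccl3, Ccl4, Ccl5, Ccl6, Ccl7, Ccl8, Ccl9 and Ccl12 encode inflammatory CC chemokines, secreted proteins that draw leukocytes towards a site of infection or injury. These 9 genes, of 30162 genes and transcripts on the array, were taken by symbol as a family and not by their values, with every non-control spot that carries 1 of the 9 names. Each had 1 probe. The Ccl2 probe was printed as 10 spots and the others as 1 spot. RNA came from resident peritoneal macrophages, phagocytes found in peritoneal fluid, all of C57BL/6 background. The 4 groups were wild-type and CD163-deficient cells, each kept without and with lipopolysaccharide (LPS). CD163 is the macrophage surface receptor for haemoglobin bound to haptoglobin. All cells were cultured in medium with serum for 2 days, and the LPS groups then received this bacterial endotoxin at 100 ng/mL for 1 day. Whether the cells without LPS were kept for that further day is not given here. If they were not, time in culture differs along with LPS. The labels do not describe the deficient allele, the age or sex of the mice, or how many mice gave each culture. Each group is 1 array, so no difference below has a replicate check and none has a p-value.

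CC chemokines bind G protein-coupled receptors on the cells they attract and form gradients on the matrix of the tissue. The products of Ccl2, Ccl7 and Ccl12 act on monocytes through Ccr2, and mouse Ccl8 acts on T cells through Ccr8. Ccl3, Ccl4 and Ccl5 attract monocytes, T cells and NK cells. Ccl3 and Ccl5 can act through Ccr1, which is the receptor of Ccl6 and Ccl9. LPS is recognised by Tlr4 and turns on many chemokine genes through NF-kappa-B and by way of interferon.

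The 250 bases before the RefSeq transcription start (GRCm38.p6, 5′ to 3′ on the strand of the gene) are shown for 4 of the 5 genes with an entry, because they hold both ends of the LPS differences described below: Ccl12 had the largest and Ccl6 was lower with LPS, while Ccl8 and Ccl9 had differences above 0 but under the median of the 9. Capitals mark every match to the letters of 7 motifs on either strand.
Ccl12: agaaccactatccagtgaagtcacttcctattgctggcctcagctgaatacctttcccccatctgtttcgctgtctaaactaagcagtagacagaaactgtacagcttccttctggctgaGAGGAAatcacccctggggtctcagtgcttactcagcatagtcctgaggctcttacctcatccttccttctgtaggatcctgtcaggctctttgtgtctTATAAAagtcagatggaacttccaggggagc
Ccl8: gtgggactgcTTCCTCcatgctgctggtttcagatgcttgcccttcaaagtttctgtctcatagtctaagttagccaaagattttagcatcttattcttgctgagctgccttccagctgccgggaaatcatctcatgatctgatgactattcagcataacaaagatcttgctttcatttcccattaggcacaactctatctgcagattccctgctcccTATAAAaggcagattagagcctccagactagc
Ccl9: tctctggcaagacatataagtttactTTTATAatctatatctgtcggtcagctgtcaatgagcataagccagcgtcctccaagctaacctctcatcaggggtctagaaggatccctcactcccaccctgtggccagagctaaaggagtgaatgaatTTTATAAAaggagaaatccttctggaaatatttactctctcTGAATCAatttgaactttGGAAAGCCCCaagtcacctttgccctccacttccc
Ccl6: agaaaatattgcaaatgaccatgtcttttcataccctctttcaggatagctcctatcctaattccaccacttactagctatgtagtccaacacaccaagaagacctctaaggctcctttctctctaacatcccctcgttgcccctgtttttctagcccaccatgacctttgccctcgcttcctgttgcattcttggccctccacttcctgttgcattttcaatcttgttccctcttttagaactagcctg
The windows lie at chr11:82101595-82101844 (plus strand) for Ccl12, chr11:82114935-82115184 (plus strand) for Ccl8, chr11:83578637-83578886 (minus strand) for Ccl9 and chr11:83593088-83593337 (minus strand) for Ccl6. The motifs were kappa-B and the ISRE core, each of 10 letters, and the shorter TTCNNNGAA (GAS), AP-1 (TGA and TCA with any 1 base between them), TTGCNNAA (C/EBP), GAGGAA (PU.1) and, for the TATA box, the letters TATAAA. The Ccl12 window held PU.1 letters from 130 to 125 bases before the start and TATA letters from 31 to 26 bases before it. The Ccl8 window held PU.1 letters from 240 to 235 bases and TATA letters from 32 to 27 bases before the start. The Ccl9 window held the kappa-B match GGAAAGCCCC, on the reverse strand from 35 to 26 bases before the start, the AP-1 match TGAATCA from 53 to 47 bases, and 3 TATA matches, of which the pair around 92 bases before the start overlap. The Ccl3 window, not printed, held PU.1 letters from 33 to 28 bases before the start. The Ccl6 window held none of the 7. Of 32851 promoter windows of this length, 7.25% held kappa-B letters, 2.98% ISRE core, 7.02% GAS, 6.75% AP-1, 9.56% C/EBP, 23.3% PU.1 and 12.4% TATA letters. These matches describe letters in a short window, and no binding was measured.

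The level of a gene is the log2 of its processed spot intensity minus that of the 75th percentile of the array, so that 0 stands for that percentile. The percentile was an intensity of 909.6 without LPS and 1325 with LPS in wild type, and of 1258 without LPS and 1188 with LPS in the CD163-deficient cells. Between 24690 and 26502 genes per array were well above background, and all 9 chemokines were on all 4 arrays, with no saturated pixel. On 399 probes with 10 spots the median SD between spots of 1 array was 0.1 to 0.12 (log2), and the median SD of such probes with a level like that of a chemokine was 0.07 to 0.15. A difference of 2 levels within 0.15 is therefore not beyond the spread between spots, and the spread between cultures is not known. That limit is about 1 SD of a difference between 2 single spots at the median SD, so values just past it can still be spot noise. The SD of like probes was widest for Ccl8 and Ccl12 without LPS, at 0.12 to 0.15. All 8 macrophage markers were detected on every array, and Cd163, with 1 spot, was low throughout, at -5.47 and -5.01 in wild type without and with LPS and at -6.0 and -5.48 in CD163-deficient cells. The labels do not say which part of Cd163 was removed, so this probe does not check the genotype. The 8 genes fixed as LPS checks, Il1b and Tnf among them, were all 2-fold or more higher with LPS in both genotypes, with medians of 5.55 and 6.54. Brightness also depends on the probe, so levels of different genes are not ranked against each other.

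With LPS, 8 of the 9 chemokines were 2-fold or more higher in wild type and the same 8 were so in CD163-deficient cells. Of all genes compared 6.44% were 2-fold or more higher in wild type and 7.24% in the deficient cells. Ccl6 was the exception, lower with LPS in both genotypes and 2-fold or more lower in CD163-deficient cells (5.5% of genes were 2-fold or more lower there and 5.09% in wild type). The median LPS difference of the 9 was 2.62 in wild type and 2.81 in the deficient cells, against 0.0 and 0.03 over all genes compared. Their range ran from -0.78 to 4.68 in wild type and from -1.03 to 5.89 in CD163-deficient cells.

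**Figure D1:**
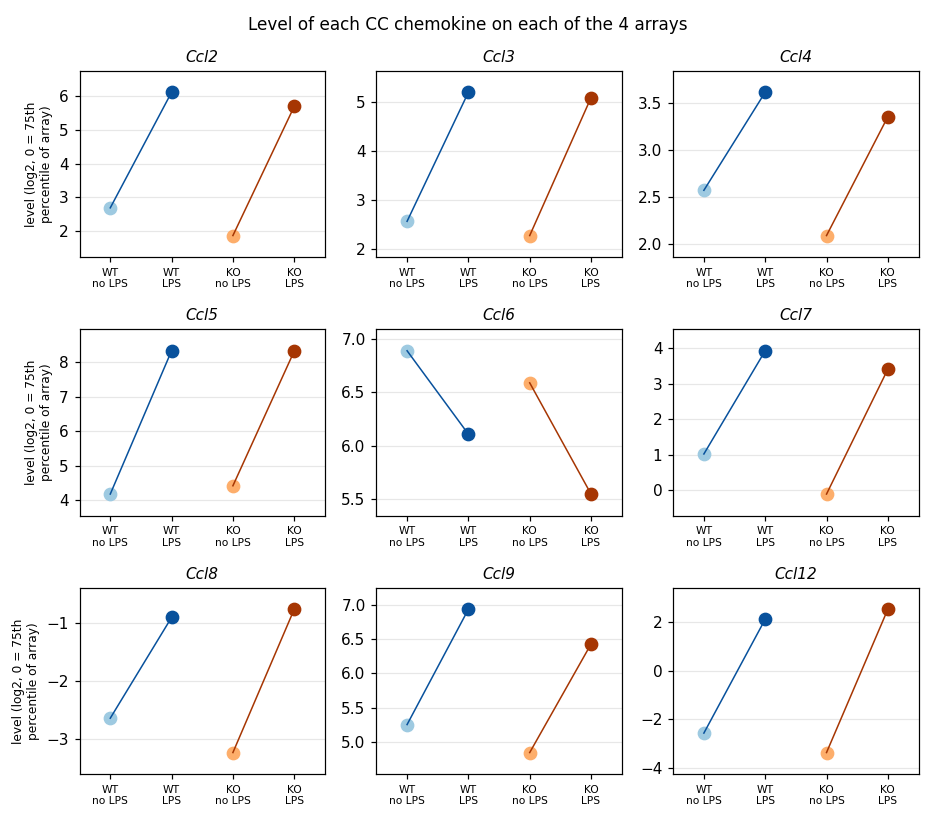
Level (log2, 0 at the 75th percentile of the array) of each chemokine on each of the 4 arrays, 1 point per array, WT for wild type and KO for CD163-deficient; the vertical scale differs between panels and lines join the arrays of 1 genotype. In 8 panels both lines climb from no LPS to LPS, and in the Ccl6 panel both descend, from 6.89 to 6.11 and from 6.59 to 5.55.

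Among the monocyte attractants, the Ccl2 probe (mm9, chr11:81850650-81850709) had an intensity of 5863 without LPS and 91810 with LPS in wild type, and of 4585 without LPS and 61100 with LPS in the deficient cells. Its levels were 2.69, 6.11, 1.87 and 5.69 in that order. Both LPS arrays stood far above both arrays without LPS, and in each condition the CD163-deficient array was the lower. The 10 Ccl2 spots ran, in the same order, from 2.57 to 2.85, from 5.96 to 6.34, from 1.72 to 2.06 and from 5.57 to 5.85. The spots of no 2 arrays overlapped. Spots of the same array repeat the measurement and not the culture, so this does not show that the difference would recur in other cultures. How many other probes with 10 spots separate in this way was not tested. The LPS difference of Ccl2 was 3.43 in wild type (10.8-fold, place 116 from the top among 24512 genes detected on both arrays) and 3.82 in CD163-deficient cells (14.1-fold, place 106 of 24432).

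Ccl7, a close relative of Ccl2 with a neighbouring gene (chr11:81860656-81860715), had intensities of 1841 and 20230 in wild type without and with LPS and of 1165 and 12650 in CD163-deficient cells. The matching levels were 1.02, 3.93, -0.11 and 3.41, and the arrays fell in the same order as for Ccl2. Its LPS difference was 2.92 in wild type (7.54-fold, place 170) and 3.52 in CD163-deficient cells (11.5-fold, place 132).

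Ccl12, another mouse ligand of Ccr2 (chr11:81916764-81916823), was dim without LPS, with an intensity of 152.7 in wild type and 121.5 in the deficient cells, and reached 5715 and 6805 with LPS. Its levels were -2.57 and 2.11 in wild type and -3.37 and 2.52 in the deficient cells. The 2 arrays without LPS stood far below the 2 with LPS, and the CD163-deficient cells held both the lowest and the highest level. Its LPS difference was the largest of the 9 in both genotypes, 4.68 in wild type (25.7-fold, place 43) and 5.89 in CD163-deficient cells (59.3-fold, place 17).

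Ccl8, the Ccr8 ligand (chr11:81930108-81930167), was below the percentile of its array in all 4 groups. Intensities were 145.6 and 705.3 in wild type without and with LPS and 133.6 and 694.1 in CD163-deficient cells, or levels of -2.64, -0.91, -3.23 and -0.77. The LPS arrays of the 2 genotypes differed by 0.13, within the spread between spots. The LPS difference was 1.73 in wild type (3.33-fold) and 2.46 in CD163-deficient cells (5.5-fold). With normexp background correction it was smaller, at 1.36 and 1.95, as were those of Ccl12 at 4.21 and 5.22.

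Of the attractants of T cells and NK cells, Ccl5 (chr11:83339296-83339355), which attracts memory T cells, had intensities of 16530 and 426600 in wild type and of 26900 and 380200 in the deficient cells, without and then with LPS. Its levels were 4.18, 8.33, 4.42 and 8.32. The 2 LPS arrays were indistinguishable at the spread between spots, and without LPS the CD163-deficient array was the higher. The LPS difference was 4.15 in wild type (17.7-fold, place 68) and 3.9 in CD163-deficient cells (place 101). With LPS its spot reached 60.4% and 57.6% of the scanner's saturation value, the nearest of the 9 to that limit.

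Ccl3 (chr11:83461358-83461417) had intensities of 5368 and 48210 in wild type and of 6077 and 40250 in CD163-deficient cells, each without and then with LPS. The levels were 2.56, 5.19, 2.27 and 5.08, and the 2 LPS arrays differed by 0.1, within the spread between spots. Its LPS difference was 2.62 in wild type (6.17-fold, place 216) and 2.81 in CD163-deficient cells (7.01-fold, place 240).

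Ccl4 (chr11:83478052-83478111), next to Ccl3 and read from the other strand, had intensities of 5400 and 16130 in wild type and of 5365 and 12140 in CD163-deficient cells. The levels were 2.57, 3.61, 2.09 and 3.35. Its LPS difference was the smallest of the 8 that were higher, 1.04 in wild type (2.05-fold) and 1.26 in CD163-deficient cells (2.4-fold). It sat just past 2-fold in wild type and under it with quantile normalization, at 0.95, and in the deposited value table, at 0.96. The LPS difference of Ccl4 was thus under that of its neighbour Ccl3 in both genotypes.

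The Ccr1 ligands parted in direction. Ccl9 (chr11:83388223-83388282) had intensities of 34720 and 162500 in wild type and of 35960 and 102500 in CD163-deficient cells, or levels of 5.25, 6.94, 4.84 and 6.43. It was higher with LPS by 1.68 in wild type (3.21-fold) and 1.59 in CD163-deficient cells (3.02-fold). Ccl6 (chr11:83401997-83402056), the next probe of the 9 along the chromosome, had intensities of 108000 and 91530 in wild type and of 121000 and 55780 in CD163-deficient cells. Its levels were 6.89, 6.11, 6.59 and 5.55, so that both arrays without LPS stood above both with LPS. The LPS difference of Ccl6 was -0.78 in wild type and -1.03 in the deficient cells, and 16.3% and 11.1% of genes detected on both arrays differed at least as far from 0. Over the settings tried the LPS difference of Ccl6 ran from -0.81 to -0.24 in wild type and from -1.2 to -1.03 in the deficient cells.

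**Figure D2:**
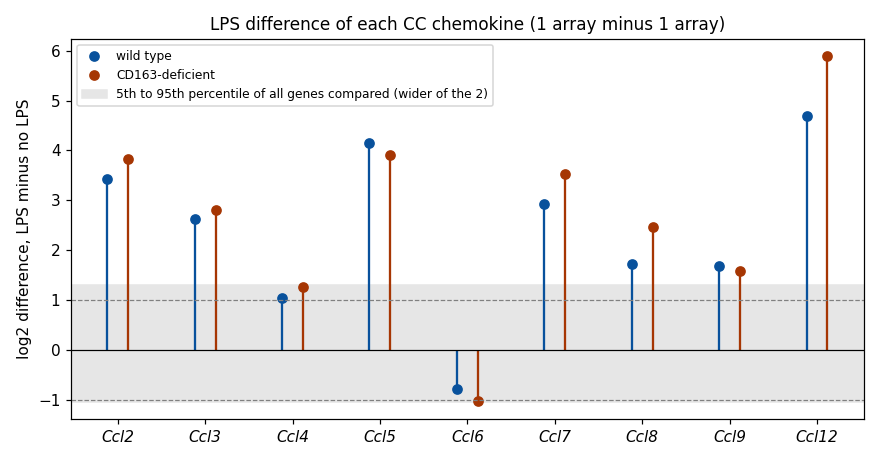
LPS difference (log2, LPS array minus array without LPS) of each chemokine, wild type and CD163-deficient side by side; the grey band is the 5th to 95th percentile of all genes compared, at the wider of the bounds of the 2 genotypes (-1.05 to 1.29), and the dashed lines mark 2-fold. All but Ccl4 and Ccl6 lie above the band in both genotypes, Ccl12 is the highest at 4.68 and 5.89, and Ccl6 is the only point pair below 0.

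Between the genotypes, 8 of the 9 chemokines were lower in CD163-deficient cells without LPS, with a median of -0.48 against -0.06 over all genes compared, and Ccl5 was the 1 that was higher. Of all genes 41.2% were higher in that comparison. Only Ccl7 was 2-fold or more lower and none was 2-fold or more higher, where 1.15% and 1.3% of all genes were. Ccl7 was 2.19-fold lower (-1.13, place 122 from the bottom among 24443 genes), Ccl2 1.77-fold lower (-0.82, place 388) and Ccl12 1.74-fold lower (-0.8, place 435). The difference was -0.59 for Ccl8, -0.48 for Ccl4, -0.42 for Ccl9, -0.3 for Ccl6 and -0.29 for Ccl3. Ccl5 was 0.24 higher. Among genes detected on both arrays 0.986% differed as far from 0 as Ccl7, 3.19% as far as Ccl2 and 35.1% as far as Ccl3.

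The wild-type array without LPS had the lowest 75th percentile, and the scaling sets how many of these signs are negative. With no scaling between arrays 5 of the 9 were lower and 4 higher (Ccl3, Ccl5, Ccl6 and Ccl9), the median was -0.01 and Ccl7 stood at -0.66. The 10 housekeeping genes had a median genotype difference of -0.19 without LPS and 0.11 with LPS and a median LPS difference of -0.23 in wild type and 0.05 in the deficient cells. Not all of the 10 were steady with LPS: Pgk1 was higher by 0.97 in wild type and 1.32 in the deficient cells, and Hprt was lower (-0.88 and -0.71). Scaled to the 10 genes, 8 chemokines were again lower, with a median of -0.3, and Ccl7 at -0.95 was short of 2-fold. Over the settings tried Ccl2 ran from -0.85 to -0.35, Ccl7 from -1.15 to -0.66 and Ccl12 from -0.82 to -0.33, each lower beyond the spread between spots. Ccl4, Ccl8 and Ccl9 came within that spread with no scaling, at -0.01, -0.12 and 0.05. With housekeeping scaling Ccl3 at -0.11 and Ccl6 at -0.13 were within it, though counted as lower. Ccl6 was also within it, at -0.09, with quantile normalization and in the deposited value table.

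With LPS, 7 of the 9 were lower in CD163-deficient cells and 2 higher, none of them 2-fold (1.09% of all genes were 2-fold or more lower and 1.24% higher). The median was -0.25 against 0.0 over all genes, of which 50.2% were higher. Ccl6 had the largest difference at -0.56 (1.47-fold lower, place 925 from the bottom of 24739), followed by Ccl7 at -0.52, Ccl9 at -0.51, Ccl2 at -0.43 and Ccl4 at -0.25. Ccl3 at -0.1, Ccl5 at -0.01 and Ccl8 at 0.13 lay within the spread between spots. Ccl12 was higher by 0.41 (1.33-fold).

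**Figure D3:**
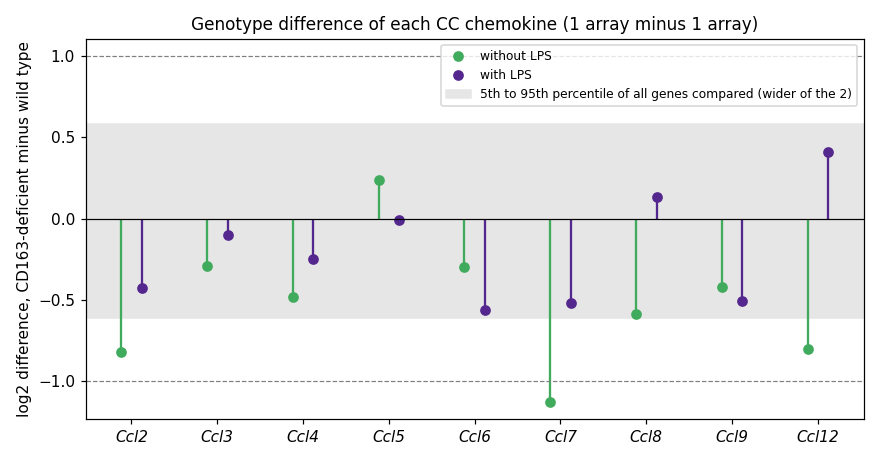
Genotype difference (log2, CD163-deficient array minus wild-type array) of each chemokine without and with LPS; the grey band is the 5th to 95th percentile of all genes compared, at the wider of the bounds of the 2 conditions (-0.61 to 0.58), and the dashed lines mark 2-fold. Without LPS only Ccl5 is above 0 and Ccl2, Ccl7 and Ccl12 lie below the band, and with LPS all 9 lie inside the band as drawn, with Ccl12 the highest at 0.41 and Ccl6, at -0.56, below the 5th percentile with LPS of -0.54.

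The LPS difference was larger in CD163-deficient cells for 6 of the 9 and smaller for 3, with a median difference between the genotypes of 0.22 against 0.08 over all genes. It was larger there for 59.8% of all genes too, so the count of 6 is near the background. Ccl12, at 1.21, was the 1 member that differed by 2-fold or more (1.51% of genes did so in that direction and 2.29% in the other), at place 211 of 23909. Ccl8 followed at 0.73, Ccl7 at 0.61 and Ccl2 at 0.39, then Ccl4 at 0.22 and Ccl3 at 0.19. Ccl9 stood at -0.09, Ccl5 at -0.24 and Ccl6 at -0.25. This count too rests on the scaling: scaled to the housekeeping genes 4 were larger and 5 smaller, with Ccl12 at 0.94 and a median of -0.05, and with no scaling 2 were larger, Ccl12 at 0.58 and Ccl8, with a median of -0.4.

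The 9 genes lie in 2 groups on chromosome 11. Without LPS, the genotype differences of the 4 genes beside Ccl2 (Ccl2, Ccl7, Ccl12 and Ccl8) ran from -1.13 to -0.59, below the 5 genes beside Ccl3 (Ccl5, Ccl9, Ccl6, Ccl3 and Ccl4), which ran from -0.48 to 0.24. The difference between the LPS differences ran from 0.39 to 1.21 in the Ccl2 group and from -0.25 to 0.22 in the Ccl3 group. The groups did not overlap in either quantity, but the gap between them was small. It was 0.11 in the first, between Ccl8 and Ccl4, and 0.17 in the second, between Ccl2 and Ccl4. The gap of 0.11 is within the spread between spots given above, which is for a difference of 2 levels. Each gap combines more levels than that, so the gap of 0.17 was not shown to lie beyond the spread either. Another scaling moves all genes of an array alike and cannot change such a gap. Of the alternatives that can, normexp left gaps of 0.02 and 0.09, and gaps of 0.11 and 0.14 remained with quantile normalization and in the deposited value table. With LPS, the genotype differences overlapped, from -0.52 to 0.41 and from -0.56 to -0.01. The LPS differences themselves overlapped as well. The 2 quantities share the arrays without LPS, the split by position was looked at after the values were seen, and genes of 1 group are not replicates of each other.

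**Figure D4:**
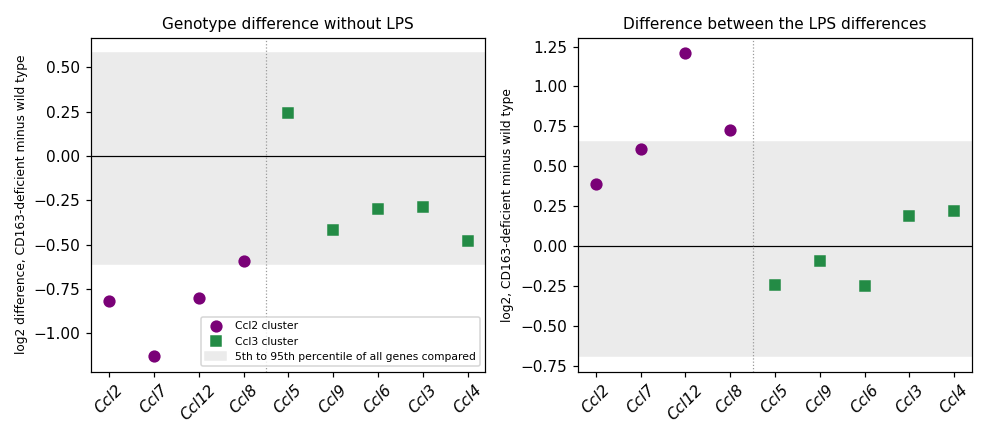
Genotype difference without LPS (left) and the difference between the LPS differences (right), both log2 and CD163-deficient minus wild type, for the 9 chemokines in chromosome order by group; the grey band is the 5th to 95th percentile of all genes compared. On the left the 4 genes of the Ccl2 group lie at -0.59 or lower and the 5 of the Ccl3 group at -0.48 or higher; on the right the Ccl2 group lies at 0.39 or higher and the Ccl3 group at 0.22 or lower.

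The neighbours of both groups were examined in a window of 250 kb on each side, a width set after the values of the 9 were known. Ccl11, an eosinophil attractant between Ccl7 and Ccl12, was not well above background on any array. Ccl1, past Ccl8, had LPS differences of -1.02 in wild type and -0.2 in the deficient cells, but its dimmer probe gave -0.01 and 0.15. Around the Ccl3 group 17 other genes were compared in each genotype. One, the whey acidic protein family gene Wfdc21, was 2-fold or more higher with LPS in both (4.79 and 4.9). Over all genes compared 6.44% were so in wild type and 7.24% in the deficient cells. Heatr9, beside Ccl5, lay in the background on both arrays without LPS, and its LPS difference was at least 0.81 in wild type and 1.23 in the deficient cells. Wfdc17 and Wfdc18, between Ccl4 and Wfdc21, stood at -0.12 and 0.49 in wild type and 0.11 and 0.3 in the deficient cells. A transcript with no gene name was lower with LPS in both (-2.24 and -2.35).

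**Figure D5:**
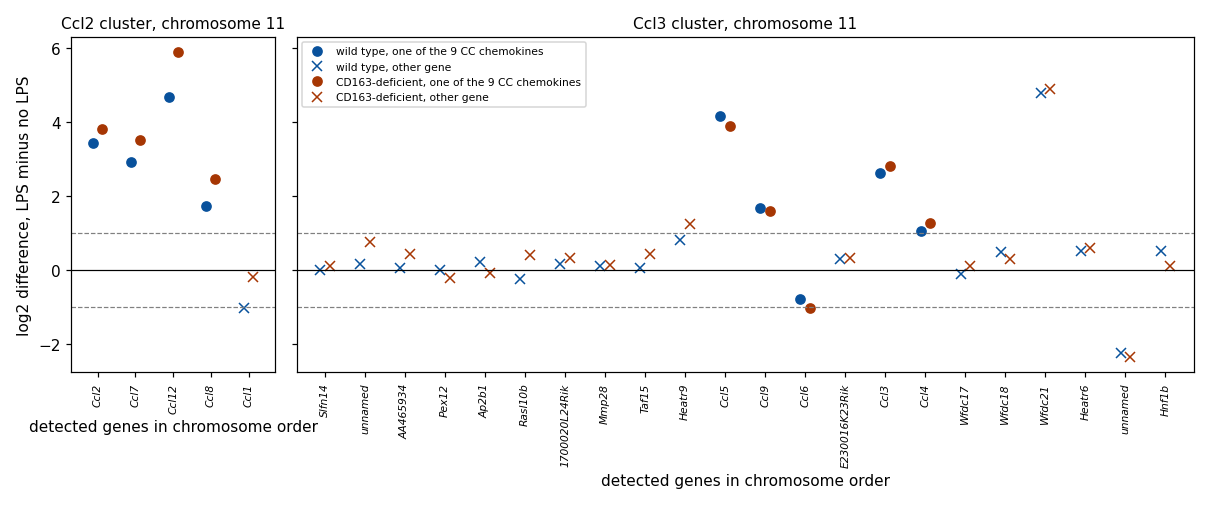
LPS difference (log2) of every gene detected within 250 kb of the 2 chemokine groups on chromosome 11, in chromosome order, in wild type and CD163-deficient cells; circles are the 9 chemokines, crosses other genes, dashed lines 2-fold, and a gene not above background on 1 array of a pair is drawn at its bound. Most crosses lie near 0, Wfdc21 lies at 4.79 and 4.9, and the unnamed transcript to its right at -2.24 and -2.35.

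Over the 4 arrays, genes were also ranked by how like a member they were, as the root mean square difference between levels centred on the mean of each gene, among 23900 other genes. Each such pattern rests on 4 values only. Nearest to Ccl2 were Serpinb2, an inhibitor of plasminogen activators (0.11), Inhba, an activin subunit (0.19), and the B cell attractant Cxcl13 (0.24), the only 3 genes within 0.25. Nearest to Ccl7 were Ereg, an epidermal growth factor family ligand (0.13), and Igf2bp1 (0.2), with Wnt6 next at 0.26. The nearest of the 9 to Ccl2 was Ccl7, and the reverse, at 0.23. Nearest to Ccl12 were Ch25h, which makes 25-hydroxycholesterol (0.1), and the antiviral genes Rsad2 and Oasl1 (0.21 each), and 7 genes were within 0.25. For Ccl5 they were Cd38, Clec4e and Slfn3 (0.08 to 0.1, with 26 genes within 0.25), for Ccl8 Slpi, Cyp7b1 and Saa1 (0.03 to 0.08, 205 genes), for Ccl3 Ptx3, Serf1 and Morrbid (0.07 to 0.1, 141 genes) and for Ccl9 Tnfsf9, Lox and Prss46 (0.08 to 0.11, 99 genes). The patterns of Ccl4 and Ccl6 were shared widely, with 504 and 1218 genes within 0.25.

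Of 12 other CC chemokines, 11 were on the array under the name searched and 4 of these (Ccl11, Ccl20, Ccl22 and Ccl26) were not detected anywhere. With LPS in wild type 2 of 7 compared were 2-fold or more higher and 2 lower, against 6.44% and 5.09% of all genes compared. Ccl17, a ligand of Ccr4, had levels of -5.03 and -1.46 in wild type and -4.25 and -2.23 in the deficient cells, without and with LPS, a difference of 3.57 and 2.03. Its genotype difference was 0.77 without LPS and -0.77 with LPS. Ccl28 lay in the background without LPS, and with LPS it was higher in wild type by at least 2.1-fold. Ccl27a was lower with LPS, by the same -1.72 in both genotypes. Ccl25 was higher by 0.77 in wild type, under 2-fold.

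Of 14 receptors and scavenging receptors all were detected on at least 1 array, and 2 were 2-fold or more higher and 2 lower with LPS in wild type. The shares over all genes compared were 6.44% and 5.09%. Ccrl2, an atypical receptor that holds chemerin at the cell surface, was higher by 1.81 in wild type and 2.0 in the deficient cells. Ccr6 was higher by 1.42 and 0.89. Ccr3 was lower (-1.15 in each genotype). Ackr4, which scavenges CC chemokines, had an LPS difference of -1.08 in wild type, where its other probe gave -0.84, under 2-fold. In the deficient cells Ackr4 lay in the background with LPS and was at least 2.84-fold lower. Ccr2 was near the background, between -5.72 and -5.55, and not well above it on 2 of the 4 arrays. Ccr1 stood at -3.94 and -3.26 in wild type without and with LPS and at -4.38 and -4.35 in the deficient cells, a genotype difference of -1.09 with LPS.

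Of 19 genes of receptor signalling and its brakes, 1 was 2-fold or more higher with LPS in wild type and 3 were lower, with a median of 0.01. Over all genes compared 6.44% were higher and 5.09% lower by that much. The GTPase gene Rac2 was higher by 1.2 in wild type and 1.45 in the deficient cells. Rgs2 and Rgs1, which shorten G protein signals, were lower (-3.45 and -1.96 in wild type, -3.83 and -1.82 in the deficient cells), as was the arrestin gene Arrb1 (-1.71 and -1.58). None of the 19 differed 2-fold between the genotypes in either condition. The shares over all genes compared were 1.3% higher and 1.15% lower without LPS and 1.24% and 1.09% with LPS, so that count is near the background. With LPS the largest differences of the 19 were those of Rgs16 (-0.53), Plcb2 (0.47, with its other probe at 0.03) and Grk3 (0.45).

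Of 28 regulators of chemokine transcription and mRNA decay, 10 were 2-fold or more higher and 3 lower with LPS in wild type, with a median of 0.74, and 12 were higher and 3 lower in CD163-deficient cells. The shares over all genes compared were 6.44% and 5.09% in wild type and 7.24% and 5.5% in the deficient cells. The interferon-side factors Irf7 and Stat2 were higher by 4.64 and 2.32 in wild type and by 5.04 and 2.88 in CD163-deficient cells. Nfkbia, the NF-kappa-B inhibitor that NF-kappa-B itself induces, was higher by 1.97 and 2.38. None was counted as 2-fold different between genotypes, which is near the shares over all genes given above. Rel, in the background in wild type without LPS, was at least 1.3-fold higher in the deficient cells there, so its difference has only a lower bound. With LPS 22 of the 28 were higher in CD163-deficient cells and 6 lower, where 50.2% of all genes were higher. Among the 10 housekeeping genes 8 were higher in that comparison too, with a median of 0.11. How far the count of 22 depends on the scaling was not tested. The median of the 28 was 0.11, within the spread between spots of 1 gene, with Irf1 (0.59), Atf3 (0.56) and Irf5 (0.54) the highest.

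Markers of other cells that can make CC chemokines were set beside these results. The summed level of 12 mesothelial and fibroblast markers, on a linear scale where 1 is the 75th percentile, was 36.5 and 38.4 in wild type without and with LPS and 28.2 and 25.2 in CD163-deficient cells; all 12 were detected on every array. These sums hide the LPS differences of single markers: 11 of the 12 were lower with LPS in each genotype. Their median LPS difference was -0.68 for wild type and -0.85 for the deficient cells. By 2-fold or more, 4 were lower in wild type and 5 in the deficient cells, against 5.09% and 5.5% of all genes compared. Dcn was the 1 that was higher (1.15 and 0.22). Between the genotypes, 5 of the 12 were higher and 7 lower in CD163-deficient cells in each condition. The median genotype difference was -0.06 without LPS and -0.22 with LPS. Col1a1 makes up most of each sum, and its genotype difference was -0.66 without LPS and -0.7 with LPS, while that of Postn was 1.17 and 1.24. The 4 monocyte markers on the array summed to 1.51, 3.1, 0.872 and 2.25 in the same order of groups, with genotype differences of Plac8 of -1.2 without LPS and -0.67 with LPS. The other Plac8 probe gave -0.68 and -0.25. Neutrophil markers summed to 5.84 and 20.6 in wild type and 5.11 and 23.1 in the deficient cells, with Ngp not detected. With LPS Ly6g, S100a8 and Camp were 2-fold or more higher in both genotypes and the other detected neutrophil markers were not. Over all genes compared 6.44% were so in wild type and 7.24% in the deficient cells. The median LPS difference of the 7 detected was 0.04 in wild type and -0.04 in the deficient cells, so the sums follow a few genes. Across the 4 arrays the sums ran from 0.823 to 1.74 for mast cells, 0.275 to 1.17 for eosinophils, 1.14 to 1.33 for B cells, 4.49 to 4.81 for T cells, 0.498 to 0.713 for NK cells, 0.68 to 1.37 for dendritic cells and 609 to 809 for the 8 macrophage markers. Since brightness depends on the probe, sums of different lists are not compared with each other. The part of the mesothelial, fibroblast and monocyte markers in the genotype differences of the chemokines was not tested, and fewer cells of a type and less RNA per cell cannot be told apart in these bulk arrays. In large peritoneal macrophage markers 4 of 8, Gata6 and Vsig4 among them, were 2-fold or more lower with LPS in both genotypes and 1, Timd4, was higher. Over all genes compared 5.09% were 2-fold or more lower in wild type and 5.5% in the deficient cells.

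The probes are 60 bases long and the 9 genes resemble each other, so their letters were compared. The longest run that a member's probe shared with the probe of another member was 7 to 9 bases, and with the probe of any other gene 12 to 15 bases. Cross-hybridisation to transcripts with no probe on the array was not tested.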

How the data were processed

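Total RNA of 4 cultures was labelled with Cy3 and hybridised to 1-colour Agilent arrays. The authors deposited scanner intensity of every spot, background-subtracted within the array by Agilent Feature Extraction (10.7.1.1 per the file headers, 9.5.1.1 per the submitters' processing notes) and not adjusted between arrays. The deposited value table had a median of 175.3 on each array and differed from a quantile normalization of those intensities by a median of at most 0.0016 (log2).

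Outlier spots were left out, spots of a probe were averaged on the log2 scale (43020 spots, 39425 probes), and each array's 75th percentile over its non-control spots was taken off. That percentile and the bounds below were settled after first values had been seen, and a percentile over probes is among the alternatives. A probe with at least 50% of its spots well above background counted as detected, and a gene was compared if detected on 1 array of a pair, with the other array at the higher of its own and the lowest detected level. The difference between LPS differences needed all 4 arrays. The probe with the highest mean level stood for a gene. Genes were counted at 2-fold, with no test, since each group has 1 array. The percentile scaling, differences, 2-fold counts and quantile normalization were checked on simulated levels with planted changes well past 2-fold. Outlier removal, spot averaging, detection, bounds and probe choice were not checked in this way.

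Members, lists and rules were chosen with earlier results of these data known. All 9 members are described; of each list, the up to 4 genes with the largest LPS difference in wild type and the up to 3 with the largest genotype difference with LPS are named, and other genes named were chosen after their values were seen. Some genes of these lists are not reported here. The lists were the other CC chemokines, the receptors, receptor signalling, regulators, LPS checks, housekeeping genes and the cell type markers. Alternatives were normexp (limma 3.58.1, R 4.3.3, offset 50), quantile normalization, the median of detected probes, the deposited table, the mean of all probes, detection on both arrays and no filter. Added after seeing the data were housekeeping scaling, the percentile over probes and no scaling. Python 3.11.15, numpy 2.4.6 and pandas 2.3.3 were used. Positions are mm9, per the file headers, and promoters RefSeq, GRCm38.p6; 5 of the 9 members had a promoter entry.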

Additional observations from a re-analysis of the deposited data

Results flagged for a closer look

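The genotype difference (log2, CD163-deficient minus wild type) had opposite signs without and with LPS for 3 of the 9 chemokines, each from 1 array per group, and the difference between the conditions was not tested. For Ccl12 it was -0.8 without LPS and 0.41 with LPS, and both signs held under every setting tried. For Ccl8 it was -0.59 without LPS and 0.13 with LPS, where the second value is within the spread between spots and turned negative with no scaling between arrays. For Ccl5 it was 0.24 without LPS and -0.01 with LPS, where the second value is within that spread as well and was above 0 with normexp background correction and when scaled to the median of detected probes.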

How the results depend on the processing

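No paired analysis was possible because each group has 1 array. The mean of all probes, detection on both arrays and no filter could not move the 9 chemokines, each with 1 probe detected on all arrays. Of 105 comparisons of a median or count of the 9 with the other 7 alternatives, 92 stayed within 0.15 (log2) or, for counts, 1.5 times. The others were as follows. The median LPS difference in wild type was 2.81 with housekeeping scaling and 3.17 with no scaling, and in CD163-deficient cells 2.65 with quantile normalization and 2.64 in the deposited table. The median genotype difference without LPS was -0.3 with housekeeping scaling and -0.01 with no scaling, with 0 genes 2-fold or more lower in both, and with LPS it was -0.41 with no scaling. The median difference between LPS differences was -0.05 with housekeeping scaling and -0.4 with no scaling, with 0 genes 2-fold or more higher in both. For single genes, 226 of 315 values stayed within 0.15 and 89 moved further. No gene past 2-fold changed sign.

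Over all genes compared, no scaling moved the median to 0.53 (LPS, wild type), 0.4 and -0.15 (genotype, without and with LPS) and -0.54 (difference between LPS differences), and housekeeping scaling to 0.17, 0.11, -0.08 and -0.19; normexp gave -0.13 in wild type with LPS and 0.19 for the difference between LPS differences. The share of 2-fold genes that were higher was 55.8% for LPS in wild type (70.4% with housekeeping scaling, 90.1% with none), 53.0% for genotype without LPS (31.8% with normexp, 74.5% and 93.1%), 53.3% with LPS (72.7%, 40.6% and 32.5%) and 39.7% for the difference between LPS differences (62.4%, 13.3% and 2.1%). Counts of 2-fold genes depended on the setting: 1717 higher with LPS in wild type became 1052 (normexp) to 4872 (no scaling) and 1358 lower became 538 to 1589; in CD163-deficient cells 1893 became 1280 to 2366 and 1438 became 863 to 1964. For genotype without LPS 337 became 48 to 1518 and 299 became 103 to 657, with LPS 331 became 88 to 568 and 290 became 33 to 944, and for the difference between LPS differences 360 became 68 to 1351 and 547 became 149 to 3188. Ccl8 and Ccl12 were dim without LPS, which limits their precision, and 1 array per group limits every value.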
